A study of Apis mellifera with 2 samples.

Results

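Of 692 entries in a table of miRNA counts from honey bee larvae, 639 are marked as predicted miRNAs by a name prefix and a running number, and 113 of these had at least 1 count in both the queen and the worker library. These 113 entries are described here and are called predicted miRNAs with their number in the table. They were chosen by their counts in the same libraries that give the caste ratios, so every ratio below is a description and carries no test.

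miRNAs are short RNAs cut from hairpin precursors, first by Drosha in the nucleus and then by Dicer in the cytoplasm, and loaded into Argonaute proteins, where the seed near the 5′ end pairs with target mRNAs and lowers their output. A prediction from small RNA reads usually rests on reads that stack on an arm of a genomic hairpin, so a list of predictions can hold true miRNAs, fragments of other RNAs and other small RNAs. In honey bees, queens and workers arise from the same kind of female egg, and the diet of the young larva sets the caste. The table gives no sequence, arm or position for any prediction. RefSeq's gene table for the assembly Amel_HAv3.1 lists 238 miRNA genes and holds 0 of the 113 names. The names are a prefix and a running number, so a search by name carries no information. Whether any of the 113 is a known miRNA under another name was not tested.

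The larvae were Apis mellifera ligustica of the high royal jelly breed 'Zhenongda No.1' from 3 colonies. In the queen group, 150 larvae per colony were moved into queen cups after 66 h, when they were less than 18 h out of the egg, and then returned to their own colony. For the worker group the labels describe no such transfer, so caste and transfer cannot be told apart. Sampling took 40 to 60 larvae per caste and colony at day 4 (73 to 90 h after hatching), day 5 (97 to 114 h) and day 6 (121 to 138 h), with no treatment named. RNA of the 3 days was pooled, and a fraction of 18 to 30 nt was sequenced as 1 library per caste. Listed counts came to 2658259 for queen and 2318675 for worker. No dissection is named, so fewer cells of a type and less RNA per cell cannot be told apart. There were no replicates. Intervals in parentheses are exact 95% intervals for counting error alone. No molecular identifiers were named, so PCR copies of a molecule may be counted more than once and the intervals may be too narrow. The ratios compare these 2 libraries, and the spread between colonies was not measured.

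The 113 predicted miRNAs took a small part of both libraries, and a few entries held most of it. They summed to 87405 counts in the queen library, 3.29% of its listed counts (3.27 to 3.31), and to 106034 counts in the worker library, 4.57% (4.55 to 4.60). Relative to the listed totals, the worker-over-queen ratio of their sum was 1.39 (1.38 to 1.40). With other scalings of the libraries it was 1.04 (TMM factors), 1.01 (median of ratios) and 0.969 when the totals left out the 5 most abundant entries, so the direction turned in the last of these. Of all counts in predicted entries they held 97.8% among queens and 96.2% among workers. The 5 most abundant of them held 82.0% of these entries' queen counts and 75.8% of their worker counts. The other 108 together had 15713 queen and 25660 worker counts, a worker-over-queen ratio of 1.87 (1.84 to 1.91), which became 1.39, 1.36 and 1.30 with the same scalings. Over all 113 the median count was 19 for queen and 21 for worker, so most rest on few reads. Summed over both libraries, the median predicted miRNA had 39 counts, against 4966 for the 52 named miRNAs counted in both.

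By summed counts, 41 of the 113 had under 20 counts, 31 had from 20 to under 100, 27 from 100 to under 1000, 9 from 1000 to under 10000 and 5 at least 10000. Predicted miRNA 24 was the most abundant, with 21611 queen counts and 22437 worker counts, or 8130 and 9677 CPM (counts per 1000000 listed counts). Of the named miRNAs, 11 had more counts. Predicted miRNA 5 followed with 16346 and 15904 counts. Both lay close to a ratio of 1: the worker-over-queen ratio was 1.19 (1.17 to 1.21) for predicted miRNA 24 and 1.12 (1.09 to 1.14) for predicted miRNA 5. Predicted miRNA 4 had 13064 queen and 17095 worker counts, which gives 1.5 (1.47 to 1.53). Predicted miRNA 29 had 14241 and 10278, and among the 5 most abundant it was the 1 entry on the queen side, by 1.21-fold (1.18 to 1.24). Predicted miRNA 15 had 6430 queen and 14660 worker counts. The directions of predicted miRNAs 24 and 5 turned to the queen side with the 3 scalings just named. Predicted miRNA 15 was the 1 entry of these 5 past 2-fold, with a worker-over-queen ratio of 2.61 (2.54 to 2.69).

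**Figure D1:**
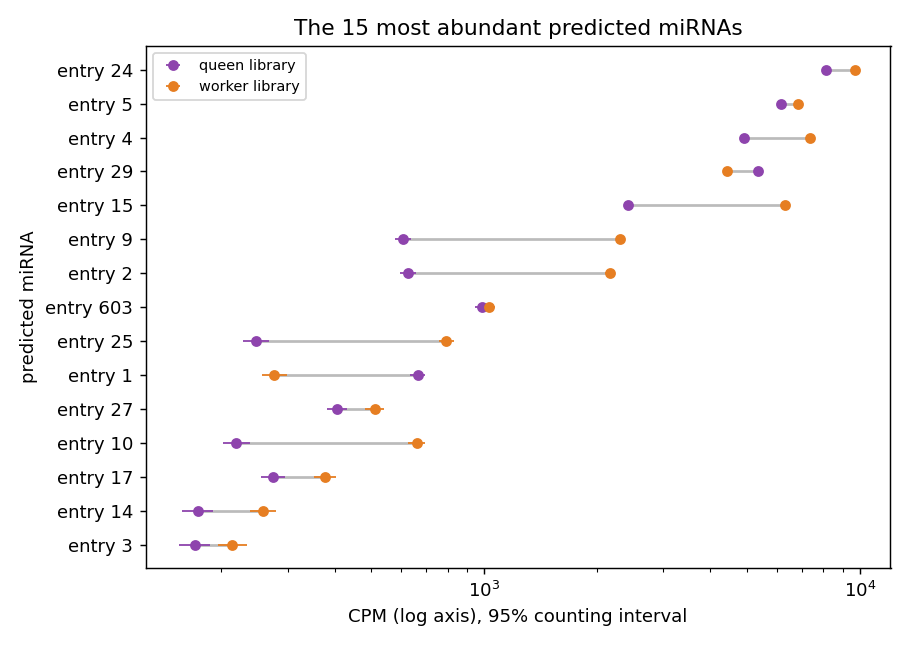
The 15 most abundant predicted miRNAs by mean CPM (horizontal log axis, counts per 1000000 listed counts) in the queen and worker libraries, with exact 95% counting intervals. The worker point lies to the right of the queen point for all of them except predicted miRNAs 29 and 1 with the listed totals used here, while predicted miRNAs 24, 5, 603, 27 and 3 also turn to the queen side with TMM or median-of-ratios factors, and 17 with them when the totals leave out the 5 most abundant entries, and the points of predicted miRNA 603 nearly coincide at 986 and 1028 CPM.

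Below these 5 and with listed totals, most well-counted entries lay either near a ratio of 1 or about 3-fold or more on the worker side. Predicted miRNA 9 had 1616 queen and 5340 worker counts, a worker-over-queen ratio of 3.79 (3.58 to 4.01). Predicted miRNA 2, with 1665 and 5001 counts, had a ratio of 3.44 (3.26 to 3.64), and predicted miRNA 25, with 658 and 1841, of 3.21 (2.93 to 3.51). Predicted miRNA 10, with 583 and 1534, had 3.02 (2.74 to 3.32). With TMM factors the log2 ratios of queen over worker for 9, 2, 25 and 10 were −1.50, −1.36, −1.26 and −1.17, past 2-fold but short of 3-fold. The interval of predicted miRNA 2 overlapped those of 9, 25 and 10, and the intervals of 25 and 10 overlapped. Overlap of 2 such intervals does not decide an order, and the order within these pairs was not tested. By contrast, predicted miRNA 603 had 2621 and 2384 counts, a ratio of 1.04 (0.986 to 1.1), and its interval included 1. Predicted miRNA 27 had 1081 and 1186 counts, a ratio of 1.26 (1.16 to 1.37), and predicted miRNA 14 had 460 and 598, a ratio of 1.49 (1.32 to 1.69). Predicted miRNA 17 had 729 and 877 counts, a ratio of 1.38, and predicted miRNA 3 had 452 and 496, a ratio of 1.26 (1.11 to 1.43). With listed totals these 4 lay on the worker side by more than counting error and short of 2-fold, but 27 and 3 turned to the queen side with the 3 other scalings, 17 turned without the 5 most abundant entries, and 603 turned with all 3. Predicted miRNA 1, with 1771 queen and 642 worker counts, ran the other way, with a queen-over-worker ratio of 2.41 (2.20 to 2.64). Of the 14 predicted miRNAs with at least 1000 counts, 7 lay within 1.5-fold of 1, 5 were past 2-fold on the worker side, 1 was past 2-fold on the queen side, and predicted miRNA 4 lay just beyond 1.5-fold. Over all entries counted in both libraries, 10 of 24 with 1000 to under 10000 counts lay within 1.5-fold, 8 were past 2-fold on the worker side and 1 on the queen side. With 10000 to under 100000 counts these were 9, 4 and 1 of 18. Nothing is read from these shares.

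**Figure D2:**
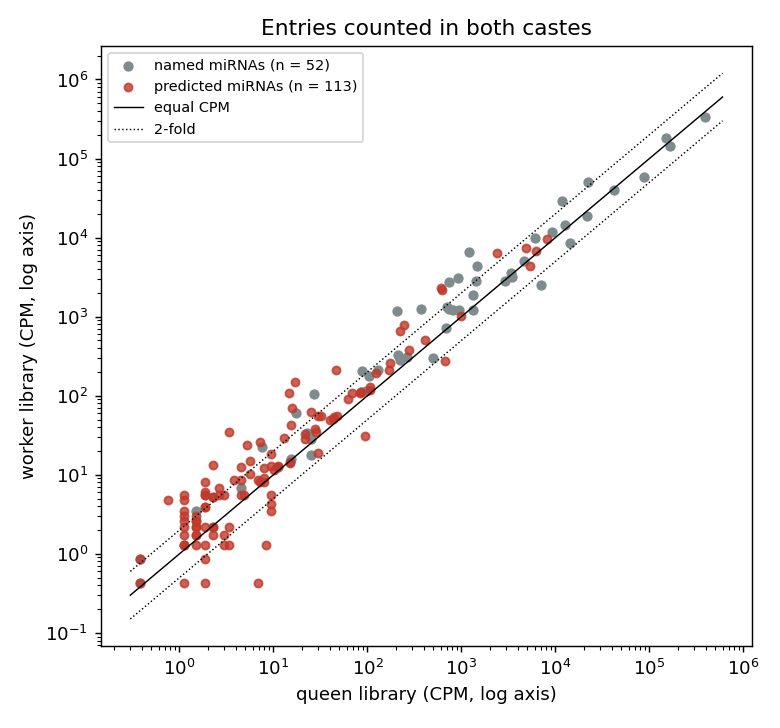
Each point is 1 entry counted in both libraries, with queen CPM on the horizontal and worker CPM on the vertical log axis, 113 predicted and 52 named. The solid line marks equal CPM and the dotted lines 2-fold, and most predicted miRNAs lie on the worker side of the solid line with listed totals, where 10 of the 72 with at least 20 counts lie above a queen-over-worker ratio of 1 and 62 below. The split stays at 10 and 62 with totals of named entries, and becomes 34 and 38 with TMM factors, 35 and 37 with median of ratios and 38 and 34 without the 5 most abundant entries in the totals.

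A call of higher in queen or worker needed a ratio of 2 or more in that direction, an interval that excluded 1 and a sum of at least 20 counts. Of the 72 predicted miRNAs that reached 20 counts, 21 were called on the worker side and 5 on the queen side. Over all 121 entries with 20 counts that were counted in both libraries, 27.3% were called on the worker side and 4.96% on the queen side. The shares were 29.2% and 6.94% of the 72 predicted miRNAs and 24.5% and 2.04% of the 49 named ones. Since the entries were chosen on the same counts, nothing is read from these shares. The remaining 46 predicted miRNAs had log2 ratios of queen over worker between −1.09 and 0.75. Of them 41 lay below 0 and 5 above, and 19 had an interval that excluded 1. The 1 entry past 2-fold that was not called, predicted miRNA 100, had 7 and 13 counts and an interval that included 1.

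The steepest worker-side ratios were found in the middle and low classes of abundance. Predicted miRNA 7 had 9 queen and 81 worker counts, a worker-over-queen ratio of 10.3 (5.17 to 23.4). Predicted miRNA 36 had 45 and 341 counts, a ratio of 8.69 (6.35 to 12.1), and predicted miRNA 66 had 39 and 251, a ratio of 7.38 (5.25 to 10.6). The 3 intervals overlapped, and the order of these 3 entries was not tested. Predicted miRNA 57 had 6 and 31 counts, a ratio of 5.92 (2.43 to 17.4). Predicted miRNAs 74 (14 and 55 counts), 11 (124 and 486), 18 (42 and 162) and 79 (5 and 19) had ratios of 4.50, 4.49, 4.42 and 4.36. With listed totals, these 8 of 72 predicted miRNAs (11.1%) were past 4-fold in the worker direction. Beside them were 2 of 49 named miRNAs (4.08%) and 10 of all 121 entries (8.26%), and the difference in share was not tested. With TMM factors, 74, 11, 18 and 79 moved to log2 ratios of −1.75, −1.74, −1.72 and −1.70, short of 4-fold. Predicted miRNAs 7, 36, 66 and 57 stayed past it. Of the named miRNAs, miR-263 moved to −1.999 and miR-124 stayed past 4-fold at −2.09. Of the 8, 4 had fewer than 100 counts. Among them predicted miRNA 11 has the narrowest interval, 3.68 to 5.52, and predicted miRNA 79 the widest relative to its value, 1.57 to 14.9.

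Of the other called entries on the worker side, predicted miRNA 22 had 19 queen and 60 worker counts, which gives 3.62 (2.13 to 6.42). Predicted miRNA 32 had 41 and 100 counts, a ratio of 2.80 (1.93 to 4.13). Predicted miRNA 68 had 66 and 146, a ratio of 2.54 (1.88 to 3.45), and predicted miRNA 77 had 34 and 67, a ratio of 2.26 (1.47 to 3.52). All 4 intervals reached past 3, and those of 32, 68 and 77 also fell below 2. Predicted miRNAs 102, 55, 110 and 52 were called on at most 50 counts each, at ratios of 2.77, 2.68, 2.62 and 2.29. The lower ends of their intervals were 1.37, 1.42, 1.02 and 1.02, so the last pair were barely separated from a ratio of 1. The 21 worker-side entries together held 28.6% of the worker counts of predicted miRNAs counted in both castes and 13.1% of their queen counts.

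The queen side held few entries and few counts. Beside predicted miRNA 1, predicted miRNA 28 had 253 queen and 72 worker counts, a queen-over-worker ratio of 3.07 (2.35 to 4.04). The other 3 had at most 35 counts. Predicted miRNA 90 had 22 and 3 counts, a ratio of 6.40 (1.92 to 33.4), predicted miRNA 30 had 25 and 8, a ratio of 2.73 (1.19 to 6.99), and predicted miRNA 8 had 25 and 10, a ratio of 2.18 (1.01 to 5.09). The 5 queen-side entries held 2.40% of the queen counts of predicted miRNAs counted in both castes and 0.693% of their worker counts. With listed totals, 10 of the 72 predicted miRNAs had a ratio above 1 and 62 below. For the 49 named miRNAs the split was 12 and 37, and for all 121 entries 22 and 99. Nothing is read from these splits.

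The balance between castes depends on how the libraries are scaled, because a scaling moves every log2 ratio by the same amount. TMM factors raised each log2 ratio by 0.43, median-of-ratios factors by 0.46 and totals without the 5 most abundant entries by 0.52. The median log2 ratio of the 72 predicted miRNAs was −0.46 with listed totals and became −0.036, −0.0018 and 0.059. The split above and below 0, which was 10 to 62, was then 34 to 38, 35 to 37 and 38 to 34. The first and second of these scalings place the typical entry near 1 by construction. The calls became 7 in the queen and 15 in the worker direction with TMM factors, 7 and 14 with median of ratios, and 7 and 13 without the 5 most abundant entries. With totals of named entries, which lowered each log2 ratio by 0.02, they were 4 and 22. Predicted miRNA 15, at 2.61-fold with listed totals, lost its call with the first 3 of these scalings. In all 5 scalings 13 worker-side entries kept their call (2, 7, 9, 10, 11, 18, 22, 25, 36, 57, 66, 74 and 79), and 4 queen-side entries kept theirs (1, 28, 30 and 90).

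**Figure D3:**
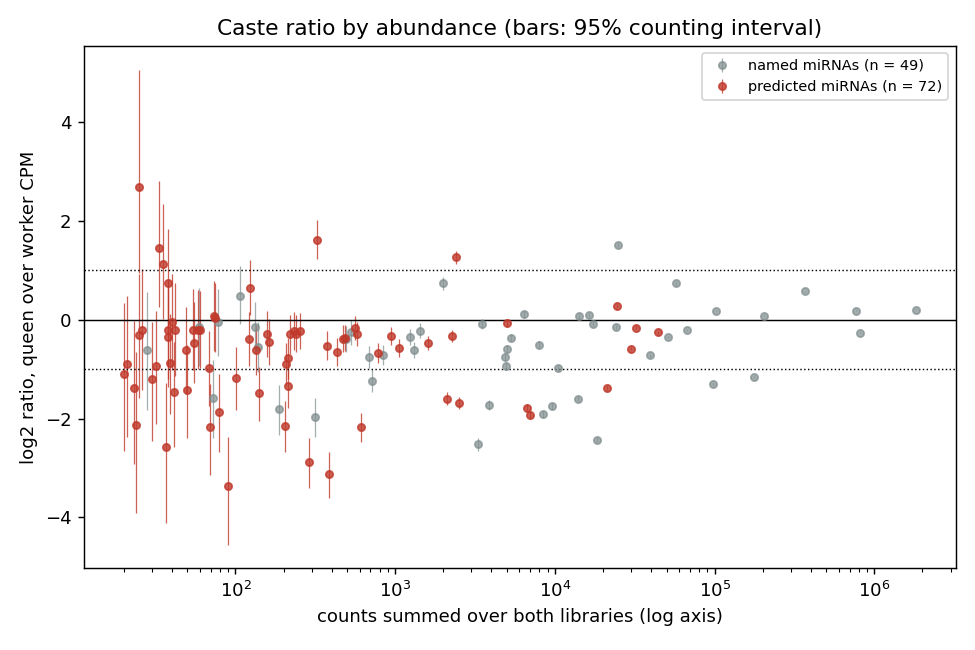
The log2 ratio of queen over worker CPM (vertical) against counts summed over both libraries (horizontal log axis) for 72 predicted and 49 named miRNAs with at least 20 counts, with 95% counting intervals as bars and dotted lines at 2-fold. Intervals narrow to the right, where most named miRNAs lie, and predicted miRNAs 36 and 66 lie below −2.8 with intervals clear of the 2-fold line.

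Named miRNAs in the same classes of summed counts gave the comparison for abundance. Counting error depends on the counts, and the difference between the medians of both kinds does not depend on the scaling. With 20 to under 100 counts, 31 predicted miRNAs had a median log2 ratio of −0.46 and 4 named miRNAs −0.38. With 100 to under 1000 counts, 27 predicted and 10 named miRNAs had −0.45 and −0.63. With 1000 to under 10000 counts, 9 predicted and 15 named miRNAs had −0.58 and −0.59. With 10000 to under 100000 counts, 5 predicted and 13 named miRNAs had −0.25 and −0.21. The differences in the 4 classes, predicted minus named, were −0.08, 0.18, 0.01 and −0.04, and whether the kinds differ was not tested. Among single entries the standard deviation of the log2 ratio was 1.20, 0.99, 1.05 and 0.62 for predicted miRNAs and 0.70, 0.76, 0.87 and 1.02 for named ones. Counts within a class were not matched. Median summed counts were 39, 241, 2413 and 30159 for predicted and 65.5, 402, 4841 and 24209 for named miRNAs. Median interval widths on the log2 scale were 2.03, 0.79, 0.26 and 0.066 against 1.58, 0.66, 0.17 and 0.085, so these spreads hold unlike counting error. Averaged over classes by the number of predicted miRNAs, the difference was 0.03. When entries were classed by the lower of their 2 counts, the class of 1000 to under 10000 held 5 predicted and 16 named miRNAs, with medians of −1.39 and −0.54. The 5 there were predicted miRNAs 2, 9, 15, 27 and 603, so that in this class, with 3 of 5 entries past 2-fold, the value depends on how abundance is measured.

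**Figure D4:**
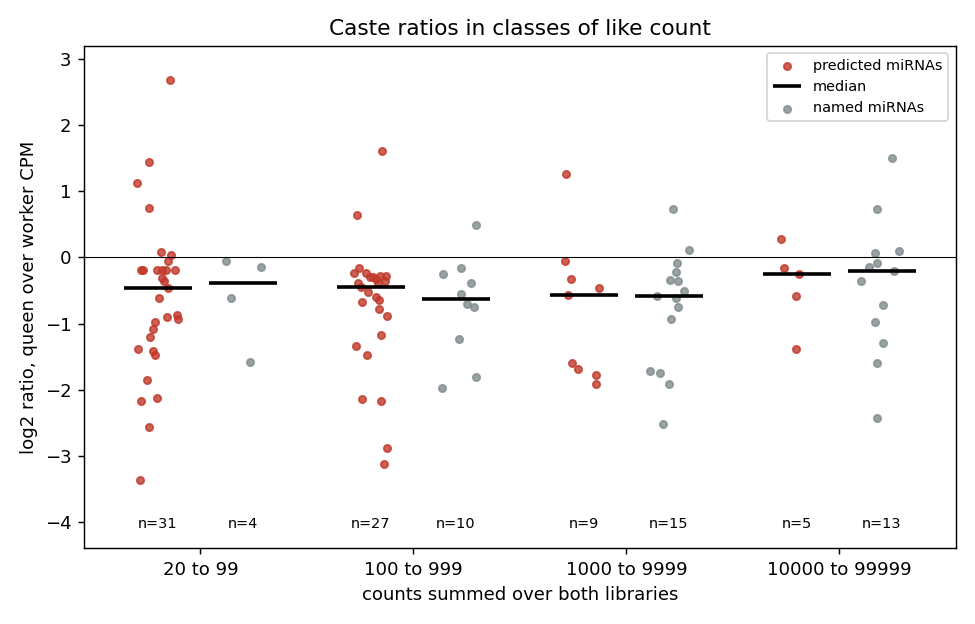
Log2 ratio of queen over worker CPM (vertical) for predicted and named miRNAs in 4 classes of counts summed over both libraries (horizontal), with each class's median as a black bar and the number of entries below. The medians of both kinds lie between −0.63 and −0.21 in every class, while single entries spread from −3.37 to 2.68.

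Calls among well-counted entries were compared next. Of the 41 predicted miRNAs with at least 100 counts, 12 were called on the worker side (29.3%) and 2 on the queen side, and of 45 such named miRNAs 11 (24.4%) and 1. Over all entries counted in both libraries, worker-side calls were 10 of 37 (27.0%) with 100 to under 1000 counts and 8 of 24 (33.3%) with 1000 to under 10000. They were 4 of 18 (22.2%) with 10000 to under 100000 and 1 of 7 (14.3%) with at least 100000. Queen-side calls in these classes were 1, 1, 1 and 0. Nothing is read from these shares. Within 1.5-fold of a ratio of 1 lay 32 of 72 predicted miRNAs (44.4%) and 25 of 49 named ones (51.0%), and 57 of all 121 entries. Across entries, which are not independent and share both libraries, Pearson's r between the castes' log2 CPM was 0.936 for the 72 predicted miRNAs and 0.978 for the 49 named ones, and Spearman's rho was 0.896 and 0.973. The named miRNAs span a wider range of counts.

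The named miRNAs nearest in count to the most abundant predicted ones show how much single entries of like count differ. Nearest to predicted miRNAs 24 and 5 was miR-993, whose gene lies in the Hox cluster of insects, with 16106 queen and 23085 worker counts, a worker-over-queen ratio of 1.64 (1.61 to 1.68). Nearest to predicted miRNAs 4 and 29 was miR-375, known from neuroendocrine and pancreatic islet cells of mammals, with 18879 and 5784 counts. Nearest to predicted miRNA 15 was miR-100, a member of the let-7 complex, with 12322 and 11887 counts, a ratio of 1.11 (1.08 to 1.13). Almost as near on the log scale was miR-263, with 3222 queen and 15091 worker counts, a ratio of 5.37 (5.17 to 5.58). Predicted miRNAs 9 and 2 were past 3-fold on the worker side with listed totals. Their nearest was miR-12 with 3523 and 2840 counts, a ratio of 0.924 (0.879 to 0.971). Nearest to predicted miRNA 603 was miR-33, which in mammals lies in introns of SREBP genes and acts in lipid handling, with 2160 and 2830 counts, a ratio of 1.5 (1.42 to 1.59). Nearest to predicted miRNAs 25 and 1 was miR-315, an activator of Wingless signalling in Drosophila, with 1313 and 687 counts. With listed totals, entries of like abundance lay on either side of 1 in both kinds.

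The numbering of the predictions, which the choice of entries did not use, followed both presence and abundance. Of the predicted entries numbered 1 to 113, 108 were counted in both libraries (95.6%), and of the 526 numbered above 113, 5 were (0.951%). Those 5 were predicted miRNAs 359 (3 queen and 3 worker counts), 394 (3 and 11), 601 (12 and 13), 602 (4 and 5) and 603 (2621 and 2384). Of these, 603 was the eighth most abundant of all 113. The 32 entries numbered 1 to 32 were all counted in both castes, held 94.4% of the summed counts of the 113 and had a median of 548 counts. The 76 counted in both castes and numbered 33 to 113 had a median of 23.5 counts and a highest of 578. The limits at 113 and 32 were chosen after the values were seen. How the authors numbered the predictions was not given in the sources used here.

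**Figure D5:**
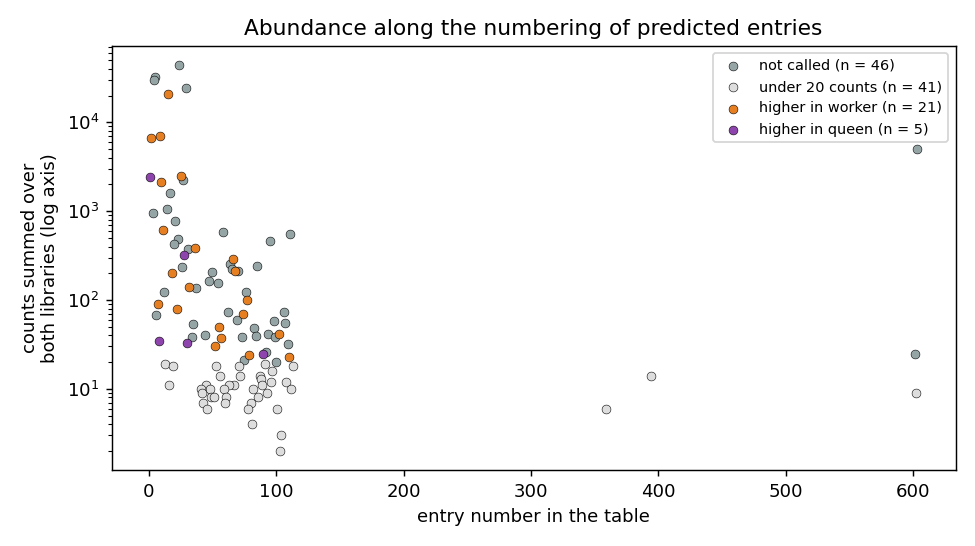
Counts summed over both libraries (vertical log axis) against the number of each predicted miRNA in the table (horizontal) for the 113 entries, coloured by call. All but 5 lie at numbers up to 113, and the entries of highest count lie at numbers up to 32, apart from predicted miRNA 603 with 5005 counts.

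At the edge of the choice, just inside, 5 entries had 1 count in a library. Predicted miRNA 91 had 18 queen and 1 worker counts, 78 had 5 and 1, 81 had 3 and 1, 104 had 1 and 2, and 103 had 1 and 1. Just outside, 208 predicted entries were counted in the queen library alone and 318 in the worker library alone, both with a median of 4 counts. Of those numbered up to 113 and left out, entry 39 had 2125 worker counts, entry 40 had 451, entry 105 had 61 and entry 38 had 5, each with 0 queen counts, and entry 33 had 4 queen and 0 worker counts. Whether a 0 means no reads or an entry not listed for that library was not given in the sources used here.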

How the data were processed

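Small RNA from pooled queen and worker larvae was sequenced, 1 library per caste. Whole-number counts per miRNA entry were used as deposited by the authors, per the file headers 1 column per caste. The aligner, miRNA caller, genome build and treatment of reads that fit several entries were not given in the sources used here. Since ligation and amplification depend on sequence, counts of different entries do not give molar ratios. The table also has 242 empty columns.

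Counts were scaled to each library's listed total, so that 1 count equals 0.376 CPM in queen and 0.431 CPM in worker. Ratios carry exact conditional (Clopper-Pearson) 95% intervals, and shares exact Clopper-Pearson intervals. With 1 library per caste there were no tests or p-values. Alternative scalings used TMM (edgeR 4.0.16), median of ratios (DESeq2 1.42.0), both without their tests, and other totals. Further alternatives changed the minimum count, the ratio, the interval level and the classes. Software was Python 3.11.15 with scipy 1.17.1, pandas 2.3.3, numpy 2.4.6 and matplotlib 3.10.9, and R 4.3.3. The calling step was tested on simulated counts.

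Named in the text are the 15 most abundant predicted miRNAs by mean CPM, all called ones, those with at least 1000 counts within 1.25-fold of 1, and the named miRNA nearest in summed counts to each of the 10 most abundant. All other entries named were chosen after their values were seen. The entries and rules were chosen with earlier results of these data known.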

Additional observations from a re-analysis of the deposited data

How the results depend on the processing

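Of 35 predicted miRNAs named by the rule, 29 kept their call, or stayed without one, under TMM and 28 under median of ratios. The number was 27 when totals left out the 5 most abundant entries and 34 with totals of named entries, and the others lost their call. No call could reverse, because the largest shift of a log2 ratio, 0.52, is less than the 2-fold a call needs. Entries without a call counted as unchanged even where their direction turned, as for 24, 5, 603, 27 and 3 under TMM. Of the lost calls, predicted miRNA 102 under median of ratios (log2 ratio −1.01) and predicted miRNA 8 with totals of named entries (1.104) were still past 2-fold, with an interval that reached 1. Predicted miRNAs called higher in queen (5) became 2 with a minimum of 100 counts, 1 at 4-fold and 3 with a 99% interval. Those called higher in worker (21) became 13 without the 5 most abundant entries, 12 with a minimum of 100 counts and 8 at a ratio of 4. Named miRNAs higher in queen (1) became 4 under TMM, 4 under median of ratios, 5 when the 5 most abundant entries were left out, 3 at 1.5-fold and 0 at 4-fold; those higher in worker (12) became 20 at 1.5 and 2 at 4. The median log2 ratio of predicted miRNAs (−0.46) became −0.036, −0.0018 and 0.059 with TMM factors, median of ratios and totals without the 5 most abundant entries, and that of named miRNAs (−0.36) became 0.067, 0.10 and 0.16. The share of predicted miRNAs in queen and worker counts (3.29% and 4.57%) was 5.39% and 6.91% without the most abundant entry in the total, 19.6% and 19.0% without the 5 most abundant, and 2.48% and 3.61% without predicted miRNA 24. So which library had the larger share turned when the 5 most abundant entries were left out. These changes follow from the threshold, the entries assessed or a constant added to every log2 ratio. The averaged class difference was −0.02 with finer classes and −0.05 with classes of the lower count. Classes with fewer than 3 entries of either kind were left out of the average. Among finer classes these were 20 to under 60 counts (24 predicted and 2 named, difference −0.02) and 6000 to under 20000 (2 and 10, −1.11). With classes of the lower count, the averaged differences ran from −0.84 to 0.24, and entries whose lower count was under 20 were not covered. No paired analysis was possible because there was 1 library a caste. Depth limits the 41 entries under 20 counts, whose intervals had a median width of 4.55 on the log2 scale.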

Other observations

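The 41 predicted miRNAs under 20 counts, which were not called, summed to 196 queen and 241 worker counts. Their median log2 ratio of queen over worker was −0.52, with a range from −2.66 to 3.97, and 5 of them had an interval that excluded 1. These were predicted miRNAs 13 (5 queen and 14 worker counts), 88 (2 and 11), 91 (18 and 1), 97 (3 and 13) and 394 (3 and 11), chosen after their values were seen. Predicted miRNA 91 was the 1 of these with more queen than worker counts.

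Equal counts in both libraries occurred in 13 of the 113 predicted miRNAs, in 1 of 52 named miRNAs counted in both and in 14 of all 165 such entries. All had under 100 counts summed, where few named miRNAs lie. Under 20 counts these were 7 of 41 predicted and 1 of 3 named miRNAs, and with 20 to under 100 counts 6 of 31 and 0 of 4. The 6 predicted miRNAs with at least 20 counts summed were 69 with 30 counts in each library, 98 with 29, 35 with 27, 94 with 21, 73 with 19 and 92 with 13. Raw counts within 1.1-fold of each other were found in 19 of 72 predicted miRNAs (26.4%) and in 9 of 49 named ones (18.4%), and this difference was not tested. By class they were found in 7 of 31 predicted and 1 of 4 named miRNAs with 20 to under 100 counts, and in 8 of 27 and 2 of 10 with 100 to under 1000. With 1000 to under 10000 counts it was 2 of 9 and 2 of 15, and with 10000 to under 100000 it was 2 of 5 and 3 of 13. Examples are predicted miRNAs 64 with 126 and 129 counts, 26 with 115 and 118, and 111 with 284 and 277. Both counts were shared with another predicted miRNA in 17 entries, of which 0 had 20 counts or more, so no pair of well-counted entries held identical values.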
